A study of Mus musculus with 2 samples.

Results

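*Sox9*, *Sox8*, *Sox10*, *Dmrt1* and *Nr0b1* are 5 transcription factor genes of the Sertoli cell programme and its counterpart in the foetal ovary. They were chosen by symbol, matched to the Ensembl identifiers of the count table, and are 5 of 42422 genes. RNA was counted in the somatic cells of mouse E12.5 gonads, sorted as GFP-negative cells. There were 40 libraries, in 10 groups of 4. Every embryo came from an inbred 129T2svJ *Oct4*-eGFP male crossed with a Swiss female, so that all groups carry the reporter background and none carries a targeted allele. XX and XY gonads were either uncultured or cultured with their mesonephros in DMSO, the vehicle, for 24 h or 72 h. XY gonads alone were also cultured for 24 h or 72 h in 500 nM FGFRi (BGJ398, an inhibitor of FGF receptors) or 500 nM MEKi (PD0325901, an inhibitor of the kinases MEK1/2, which act downstream of many receptors). After culture the mesonephros was dissected away and several gonads were pooled for each library, so p-values measure the spread between such pools. GFP-negative cells include Sertoli, interstitial, endothelial and blood cells. In such bulk samples, fewer cells of a type and less RNA per cell cannot be told apart.

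SOX9 is the factor that commits supporting cells of the XY gonad to the Sertoli fate. It binds DNA through an HMG box and activates *Amh* and other Sertoli genes. SOX8 and SOX10 are its closest relatives, the SoxE group, and SOX8 can act beside SOX9 in the testis. DMRT1, a DM-domain factor, keeps Sertoli cells in the male state later in life and is also made by germ cells. NR0B1 (DAX1) is an orphan nuclear receptor that represses NR5A1-dependent genes, and it is present in supporting and steroidogenic cells of both sexes.

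Part of the HMG box of the SoxE genes is shown here to compare the 3 paralogs whose transcripts were counted separately. Each sequence is 180 bases of coding sequence on the mRNA strand, from GENCODE M39 on GRCm39, beginning with the codons for RPMNAF. Capitals mark bases that differ from *Sox9*.
Sox9: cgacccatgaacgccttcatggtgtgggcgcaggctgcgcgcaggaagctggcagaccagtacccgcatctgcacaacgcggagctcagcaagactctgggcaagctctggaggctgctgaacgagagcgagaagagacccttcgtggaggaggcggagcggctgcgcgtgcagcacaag
Sox8: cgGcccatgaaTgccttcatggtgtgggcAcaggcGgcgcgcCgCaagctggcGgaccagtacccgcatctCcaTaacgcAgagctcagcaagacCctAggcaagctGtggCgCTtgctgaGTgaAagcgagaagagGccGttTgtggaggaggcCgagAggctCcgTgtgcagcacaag
Sox10: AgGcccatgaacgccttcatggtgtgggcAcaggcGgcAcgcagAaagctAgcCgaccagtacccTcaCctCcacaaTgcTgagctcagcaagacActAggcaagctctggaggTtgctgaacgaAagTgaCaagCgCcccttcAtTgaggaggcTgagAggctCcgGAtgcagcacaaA

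*Sox8* differed from *Sox9* at 26 of these 180 bases and *Sox10* at 29. Of the 60 codons, 59 in *Sox8* and 57 in *Sox10* encode the same amino acid as in *Sox9*. In each gene the stretch is split by an intron after 113 bases. It lies in exons 1 and 2 of *Sox9* (chr11:112673729-112673841 and chr11:112674635-112674701, plus strand), in exons 1 and 2 of *Sox8* (chr17:25789084-25789196 and chr17:25787968-25788034, minus strand) and in exons 2 and 3 of *Sox10* (chr15:79047489-79047601 and chr15:79043537-79043603, minus strand). Over whole annotated transcripts, the longest run of identical bases was 44 between *Sox9* and *Sox10*, 23 between *Sox9* and *Sox8*, and 26 between *Sox8* and *Sox10*.

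On GRCm39, *Sox9* (ENSMUSG00000000567.5) lies on chromosome 11 from 112673009 to 112678586 and overlaps BC006965 on the other strand. *Sox8* (ENSMUSG00000024176.10) lies on chromosome 17 from 25784634 to 25789726, and *Sox10* (ENSMUSG00000033006.10) on chromosome 15 from 79039108 to 79049469. *Dmrt1* (ENSMUSG00000024837.15) lies on chromosome 19 from 25482860 to 25581693, and *Nr0b1* (ENSMUSG00000025056.4) on the X chromosome from 85235338 to 85239554.

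Libraries held between 1380707 and 4836550 counts, with a median of 2248854. *Xist* and *Ddx3y* matched the labelled sex in all 40 libraries. The Sertoli markers fitted the label as well: the summed level of 20 Sertoli products was 2698 to 3284 CPM (counts relative to TMM-scaled library size, the usual normalised count) in uncultured XY libraries and 311 to 367 CPM in uncultured XX libraries. Depth differed widely among the 5 genes. *Sox9* had 71 to 1522 counts per library, *Nr0b1* 12 to 130, *Sox8* 1 to 121, *Dmrt1* 0 to 91 and *Sox10* 0 to 65, and all 5 passed the filter on low counts that left 15125 genes. Levels are compared within a gene, never between genes.

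*Sox9* was highest in uncultured XY cells and lowest in the XX groups. Its mean level was 663 ± 25.6 CPM (SD, n = 4) in uncultured XY cells, and no other group overlapped with it. The XY cultured groups followed, from 456 ± 105 CPM with FGFRi at 24 h, through 410 ± 101 with MEKi at 24 h, 387 ± 74.5 with FGFRi at 72 h, 320 ± 63.3 with DMSO at 24 h and 319 ± 57.1 with DMSO at 72 h, to 208 ± 17.7 with MEKi at 72 h (SD, n = 4 each). Neighbours in this order from FGFRi at 24 h to DMSO at 72 h overlapped and differed by less than the SD. The 10 groups came from different sets of libraries, described below. Across sets, group and set cannot be told apart, here and for the other genes. The MEKi 72 h group stood below DMSO at 72 h and above the XX groups without overlap. XX cells had 103 ± 48.7 CPM before culture, 91.6 ± 15.2 at 72 h and 71.9 ± 11.5 at 24 h (SD, n = 4 each), and these overlapped.

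The order was similar but less resolved for the lower genes. *Sox8* was between 10.8 ± 3.02 and 30.7 ± 9.01 CPM in the XY groups and between 2.48 ± 1.53 and 3.17 ± 1.03 CPM in the XX groups (SD, n = 4 each). Its lowest XY groups were both MEKi groups, and each pair of neighbours among the XY groups overlapped. *Sox10* had its highest mean in uncultured XY cells, 28.7 ± 7.18 CPM, and its lowest XY mean with MEKi at 72 h, 2.52 ± 1.56 CPM (SD, n = 4 each). *Dmrt1* was highest in uncultured XY cells at 35.7 ± 7.48 CPM and next highest with MEKi at 24 h at 29.1 ± 5.73 CPM (SD, n = 4 each), and these groups overlapped. The MEKi 72 h level of *Dmrt1*, 5.78 ± 1.91 CPM, lay between uncultured XX cells (7.97 ± 2.26) and XX cells at 24 h (3.90 ± 0.71), closer to each than the larger SD. At the matched time of 72 h, XX cells had less *Dmrt1*, 0.64 ± 0.99 CPM (SD, n = 4), without overlap with MEKi. *Nr0b1* ran the other way, from 37.2 ± 6.89 CPM in uncultured XX cells to 7.51 ± 2.26 CPM in XY cells after 24 h in DMSO (SD, n = 4 each). Its highest XY mean was with MEKi at 72 h, 25.0 ± 6.22 CPM, above the XX mean at 24 h of 21.2 ± 5.59 CPM by less than the SD. At the matched time of 72 h, XX cells had more *Nr0b1*, 36.75 ± 1.34 CPM (SD, n = 4), without overlap with MEKi.

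**Figure D1:**
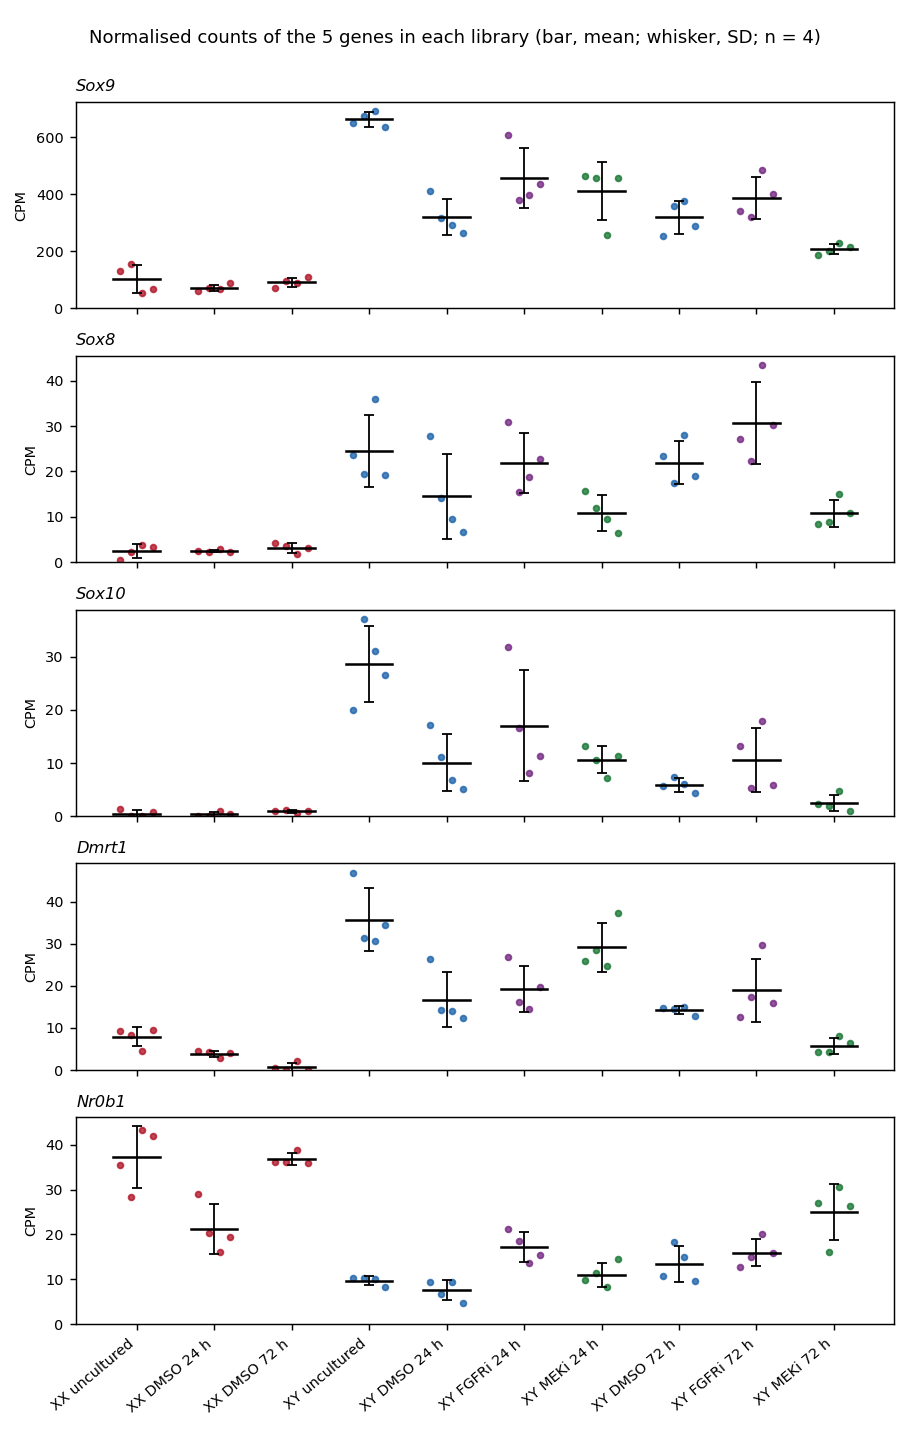
Normalised counts (CPM, linear axes from 0) of the 5 genes in each of the 40 libraries, by group: red XX, blue XY uncultured or in DMSO, purple FGFRi and green MEKi; points are libraries, bars means and whiskers SD (n = 4). *Sox9* stood at 634 to 692 CPM in uncultured XY cells and at 187 to 229 CPM after 72 h with MEKi, while *Nr0b1* was higher in XX than in XY cells at each time.

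The first comparison asked how the 5 genes differed between XX and XY somatic cells and whether the difference held through culture. The 4 Sertoli factors were lower and *Nr0b1* higher in XX cells at each of the 3 times. Uncultured XY libraries had 650, 675, 692 and 634 CPM of *Sox9*, and uncultured XX libraries 133, 156, 55.0 and 69.7 CPM. The sexes did not overlap, and 2 XX libraries (F2 and F3) stood above the other XX libraries. A DEG here passed edgeR's quasi-likelihood test at an FDR (Benjamini-Hochberg, across every gene tested) under 0.05 and changed by 1.5-fold or more. All 5 of 5 genes were DEGs before culture, against 17.3% of the genes tested, 5 of 5 at 24 h in DMSO, against 19.6%, and 5 of 5 at 72 h in DMSO, against 20.3%. The groups of these comparisons did not overlap for any of the 5 genes, as was so for 22.8%, 25.4% and 27.0% of the genes tested at these times.

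The log2 fold change of XX against XY for *Sox9* was −2.66 (SE 0.195, FDR 1.73e-16) before culture, −2.16 (SE 0.195, FDR 2.01e-13) at 24 h and −1.80 (SE 0.195, FDR 8.47e-11) at 72 h, by edgeR's quasi-likelihood test. *Sox8* had log2 fold changes of −3.35, −2.52 and −2.84 at the same times. *Nr0b1*, the gene higher in XX cells, had log2 fold changes of 1.93, 1.47 and 1.48. The size of these differences is set partly by how low the lower sex was, which matters most for *Sox10* and *Dmrt1*.

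*Sox10* was close to absent from XX cells at this depth. Its counts were 3, 0, 0 and 2 in the uncultured XX libraries and 39, 65, 65 and 61 in the uncultured XY libraries. Summed over libraries and scaled by total counts, XY had 47.2 times the XX level before culture (exact 95% interval 19.9 to 147), 38.5 times at 24 h (12.9 to 189) and 6.65 times at 72 h (3.14 to 16.2). These intervals cover counting error only. The smaller ratio at 72 h went with a lower XY level, 5.85 ± 1.30 CPM (SD, n = 4), while each of the 4 XX libraries held 2 counts. voom with quality weights and treat did not call *Sox10* at 72 h. *Sox10* also marks neural crest and glia. Of their other markers, *Erbb3* was 8.03 ± 3.23 CPM in uncultured XY and 0.719 ± 0.414 CPM in uncultured XX cells (SD, n = 4), and the whole list summed to 136 to 169 CPM and 109 to 124 CPM; their part in the result was not tested.

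*Dmrt1* had log2 fold changes of −2.10, −2.04 and −3.97 in XX against XY cells. XX libraries at 72 h held 1, 0, 7 and 0 counts of it, so that 1 library (F7) gave 7 of 8 counts, and XY libraries held 44, 29, 30 and 27. The summed level in XY was 16.3 times that in XX at 72 h (exact 95% interval 8.03 to 38.6), 4.12 times before culture (3.17 to 5.41) and 4.17 times at 24 h (3.03 to 5.85). The change of the XX to XY difference from 24 h to 72 h was −1.92 on the log2 scale (FDR 0.0989, edgeR's quasi-likelihood test), and it passed the threshold without the XX library F7 (−3.94, FDR 0.00892) or without the XY DMSO 24 h library M2 (−2.19, FDR 0.0335). Germ cell markers, which can accompany *Dmrt1*, summed to 71.1 to 96.5 CPM in uncultured XX, 160 to 242 in uncultured XY, 111 to 233 in XX at 24 h, 112 to 165 in XY at 24 h, 23.5 to 49.8 in XX at 72 h and 28.6 to 41.8 in XY at 72 h; their part in the result was not tested.

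As a test of whether the sex difference changed with time, 0 of 5 genes were DEGs for 24 h minus uncultured, against 6.20% of genes, with 0 at an unadjusted p under 0.05, 0 by DESeq2 and 0 by voom with treat. For 72 h minus 24 h, 0 of 5 were DEGs by edgeR, against 2.04% of genes, with 2 (*Sox10* and *Dmrt1*) at an unadjusted p under 0.05, and 0 by DESeq2 and by voom with treat. The study's sample sheet puts the libraries in different sets, one with the uncultured, DMSO 24 h and MEKi 24 h groups and one with the FGFRi 24 h and all 72 h groups, and each sex difference lies within one set. For *Sox9* the change was 0.50 (95% interval −0.04 to 1.04) from 0 h to 24 h and 0.36 (−0.19 to 0.90) from 24 h to 72 h.

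**Figure D2:**
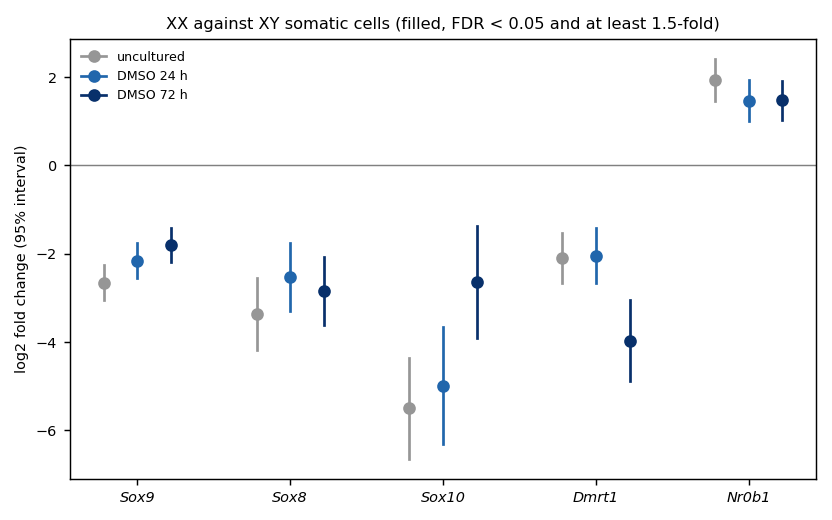
Log2 fold change of XX against XY somatic cells for the 5 genes (points) with 95% intervals (lines) in uncultured cells and after 24 h or 72 h in DMSO, from edgeR, 4 libraries per group; filled points are DEGs. The 15 points are all filled, with *Nr0b1* above 0 and the other genes below 0.

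Most of the Sertoli factors were lower in XY cells after 24 h in DMSO than in uncultured XY cells. In both sexes the cultured gonads were also 24 h older than the uncultured ones, so culture and age cannot be told apart. *Sox9* was 410, 316, 292 and 264 CPM in the XY DMSO 24 h libraries, all below the 634 CPM of the lowest uncultured XY library. Of the 5 genes, 4 were DEGs in XY cells at 24 h against uncultured, against 14.4% of the genes tested. *Sox9* fell by 1.05 on the log2 scale (SE 0.179, FDR 9.17e-06), *Sox10* fell by 1.51 (SE 0.347, FDR 0.000822) and *Dmrt1* fell by 1.11 (SE 0.246, FDR 0.000551), by edgeR's quasi-likelihood test. The groups did not overlap for these 3 genes, nor for 22.1% of the genes tested. *Sox8* fell by 0.77 (FDR 0.0449, edgeR), with overlapping groups, and was a DEG in 3 of 8 fits that left out 1 library. It was a DEG in 2 of 9 other settings, and lost by DESeq2 among them. Among the fits without 1 library it was lost without uncultured M2 or M5 or without DMSO M3, M4 or M5, over a range of −1.24 to −0.54. Among the 20 Sertoli products, 12 fell and 0 rose in the same comparison, with a median log2 fold change of −0.87 against 0.03 over all genes. Erythroid markers fell too (8 of 8, summed 12800 to 16410 CPM before culture and 2721 to 7151 CPM at 24 h); their part in the result was not tested.

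In XX cells, 2 of 5 genes were DEGs at 24 h against uncultured, against 7.73% of the genes tested. *Nr0b1* fell by 0.79 on the log2 scale (SE 0.204, FDR 0.00514, edgeR), from 35.5, 28.3, 43.4 and 41.8 CPM to 29.1, 20.3, 16.0 and 19.4 CPM, with 4 of 4 cultured libraries below the uncultured mean. *Dmrt1* fell by 1.05 (FDR 0.0420, edgeR), from 9.40, 8.39, 4.65 and 9.42 CPM to 4.55, 4.21, 2.90 and 3.95 CPM. The groups did not overlap for *Dmrt1*, nor for 14.6% of the genes tested, but it was a DEG in only 1 of 8 fits without 1 library (without uncultured F4), over a range of −1.19 to −0.97. *Sox9* had a log2 fold change of −0.55 (FDR 0.0670, edgeR) and was a DEG without uncultured F4, without uncultured F5 or without DMSO F9. Its range over the fits without 1 library was −0.74 to −0.29.

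With MEKi for 72 h, *Sox9*, *Sox8* and *Dmrt1* were lower and *Nr0b1* higher in XY cells by edgeR, but not by tests against a 1.5-fold change itself. These are 4 of 5 genes, against 6.47% of the genes tested that were DEGs. *Sox9* was 187, 203, 229 and 215 CPM with MEKi and 254, 358, 375 and 289 CPM with DMSO. The groups did not overlap, as for 17.2% of the genes tested, and *Sox9* fell by 0.61 on the log2 scale (SE 0.184, FDR 0.0229, edgeR's quasi-likelihood test), a change close to the limit of 1.5-fold, which is 0.585. *Sox9* with MEKi was still above the highest XX library at 72 h, 109 CPM.

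The SoxE relatives had fewer counts. *Sox8* passed the test and *Sox10* did not. *Sox8* was 8.53, 8.79, 15.1 and 10.8 CPM with MEKi and 23.3, 17.4, 27.9 and 19.04 CPM with DMSO, without overlap, and fell by 1.00 (SE 0.309, FDR 0.0270, edgeR). *Sox10* was 2.37, 1.91, 4.71 and 1.08 CPM with MEKi and 5.66, 7.46, 5.98 and 4.28 CPM with DMSO. The *Sox10* groups overlapped at 1 MEKi library (M4), the counts with MEKi were 5, 5, 15 and 2, and the log2 fold change was −1.10 (95% interval −2.10 to −0.09, FDR 0.149, edgeR). Of 7 neural crest and glial markers tested, 2 rose and 2 fell in this comparison, against 6.47% of the genes tested. Their summed level was 160 to 174 CPM with MEKi and 203 to 249 CPM with DMSO, and their part in the result was not tested.

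*Dmrt1*, the gene with the largest fall of the 4 called, was 4.27, 4.20, 8.16 and 6.47 CPM with MEKi and 14.7, 14.4, 15.0 and 12.9 CPM with DMSO. Its groups did not overlap, and it fell by 1.27 (SE 0.314, FDR 0.00511, edgeR). Germ cell markers were level in this comparison: 0 of 7 tested were DEGs by edgeR, and their summed level was 20.5 to 38.98 CPM with MEKi and 28.6 to 41.8 CPM with DMSO. *Nr0b1* was 27.0, 16.1, 30.5 and 26.4 CPM with MEKi and 10.7, 18.4, 15.0 and 9.52 CPM with DMSO. Its groups overlapped at 1 library each (MEKi M3 and DMSO M4), with 4 of 4 MEKi libraries above the DMSO mean, and it rose by 0.92 (SE 0.225, FDR 0.00480, edgeR). Foetal Leydig markers, from cells in which *Nr0b1* can be present, were also higher: 3 of 4 tested rose, against 6.47% of the genes tested. Their summed level was 816 to 1284 CPM with MEKi and 395 to 600 CPM with DMSO, although the Leydig marker *Insl3* was at 0 in 3 of 4 libraries of each group. The part of Leydig cells in the result was not tested.

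*Dmrt1* and *Nr0b1* were DEGs in 8 of 8 fits that left out 1 library, with ranges of −1.54 to −1.14 and 0.78 to 1.10. *Sox9* was a DEG in 4 of 8 (lost without DMSO M4 or M5 or MEKi M2 or M3, range −0.71 to −0.52; also lost under the replicate block, at −0.583, and by DESeq2) and *Sox8* in 3 of 8 (lost without DMSO M2 or M5 or MEKi M2, M3 or M5, range −1.24 to −0.87). None of the 5 was called by glmTreat or by voom with quality weights and treat, both of which test against a 1.5-fold change itself, and DESeq2 called 3.

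After 24 h, the MEKi estimates for *Dmrt1* and *Sox9* were positive, the other sign from those at 72 h. *Dmrt1* was 25.9, 28.6, 24.7 and 37.4 CPM with MEKi and 26.4, 14.2, 14.0 and 12.4 CPM with DMSO, where 1 DMSO library (M2) reached the MEKi range. *Dmrt1* rose by 0.81 on the log2 scale (SE 0.249, FDR 0.0469, edgeR) in 4 of 4 libraries against the DMSO mean, and was the 1 gene of 5 that was a DEG, against 3.27% of the genes tested. Germ cell markers rose in the same comparison in 4 of 7 tested, from a summed 112 to 165 CPM with DMSO to 267 to 477 CPM with MEKi, and the germ cell gene *Dazl* from 42.2 ± 7.65 to 119 ± 38.9 CPM (SD, n = 4); their part in the *Dmrt1* result was not tested. The *Dmrt1* call was lost in 6 of 8 fits without 1 library (without DMSO M3, M4 or M5 or MEKi M1, M2 or M6, range 0.66 to 1.09), including the fit without MEKi M2, a library that the submitters' description does not name, and it was lost by glmTreat and by voom with treat.

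The other genes did not pass the test at 24 h. *Sox9* was 465, 458, 258 and 459 CPM with MEKi and 410, 316, 292 and 264 CPM with DMSO, a log2 fold change of 0.35 (95% interval −0.01 to 0.71). One MEKi library, M4, was below the 3 others, which lay above every DMSO library. *Sox8* had a log2 fold change of −0.41 (−1.05 to 0.22), *Sox10* of 0.07 (−0.69 to 0.83) and *Nr0b1* of 0.50 (−0.02 to 1.01).

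The MEKi effect at 72 h was therefore tested against that at 24 h for each gene. Each effect was measured within one set of libraries. *Dmrt1* and *Sox9*, 2 of 5 genes, passed this test, against 1.41% of the genes tested. For *Dmrt1* the effect at 72 h minus that at 24 h was −2.08 on the log2 scale (SE 0.401, FDR 0.00194, edgeR). Against the DMSO mean, 4 of 4 MEKi libraries were higher at 24 h and 4 of 4 were lower at 72 h. The groups overlapped at 24 h and not at 72 h. The *Dmrt1* difference passed in 16 of 16 fits that left out 1 library, with a range of −2.37 to −1.93. For *Sox9* the difference was −0.96 (SE 0.256, FDR 0.0391, edgeR), and it passed in 6 of 16 such fits. The *Sox9* call was lost without 24 h DMSO M4 or M5, 24 h MEKi M1, M2 or M6, 72 h DMSO M4 or M5, or 72 h MEKi M2, M3 or M5, over a range of −1.14 to −0.88. For *Sox8* it was −0.58 (95% interval −1.48 to 0.31), for *Sox10* −1.17 (−2.42 to 0.09) and for *Nr0b1* 0.42 (−0.27 to 1.11), so a change between the times was not detectable for these 3. Neither glmTreat nor voom with treat called any of the 5 for the time difference, and DESeq2 called 1. Germ cell markers had 0 of 7 DEGs in this test by edgeR, with a median of −1.35 against 0.00 over all genes, and foetal Leydig markers had 3 of 4 higher.

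**Figure D3:**
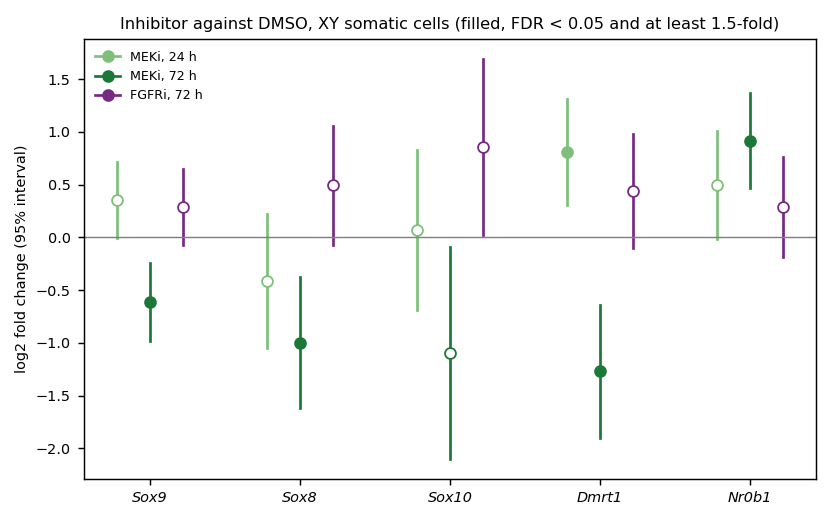
Log2 fold change of inhibitor against DMSO in XY somatic cells (points) with 95% intervals (lines) for MEKi at 24 h and 72 h and FGFRi at 72 h, from edgeR, 4 libraries per group; filled points are DEGs. *Dmrt1* was above 0 with MEKi at 24 h and below 0 at 72 h, and none of the FGFRi points is filled.

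FGFRi at 72 h gave 0 of 5 DEGs by edgeR, against 1.80% of the genes tested, with 1 gene (*Sox10*) at an unadjusted p under 0.05 and 0 by DESeq2 and by voom with treat. *Sox9* was 343, 319, 487 and 400 CPM with FGFRi, against the DMSO values of 254 to 375 CPM. Its log2 fold change was 0.28 (95% interval −0.08 to 0.65), so a fall of the size seen with MEKi lay outside the interval. *Sox8* (0.49, −0.07 to 1.05), *Sox10* (0.86, 0.02 to 1.69), *Dmrt1* (0.44, −0.10 to 0.98) and *Nr0b1* (0.29, −0.19 to 0.76) had positive estimates as well. These comparisons share their DMSO libraries with the MEKi comparison. One FGFRi library, M5, was the highest of its group for each of the 5 genes. Its summed level of Sertoli products was also the highest, 4097 CPM against 2196 to 2395 CPM in the other 3 libraries.

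MEKi and FGFRi were then compared directly at 72 h and 500 nM. *Sox9*, *Sox8*, *Sox10* and *Dmrt1* were lower with MEKi, which is 4 of 5 DEGs, against 6.43% of the genes tested. The groups did not overlap for any of these 4 genes, nor for 14.8% of the genes tested. The log2 fold changes of MEKi against FGFRi were −0.89 for *Sox9* (SE 0.183, FDR 0.000505), −1.49 for *Sox8* (SE 0.300, FDR 0.000401), −1.95 for *Sox10* (SE 0.461, FDR 0.00297) and −1.71 for *Dmrt1* (SE 0.302, FDR 5.82e-05), by edgeR's quasi-likelihood test. *Nr0b1* had a log2 fold change of 0.63 (FDR 0.0541, edgeR), and it was a DEG without FGFRi M5 or without MEKi M3, while *Sox10* was lost without FGFRi M5 (−1.52). voom with treat called 0 of 5, and glmTreat called 3.

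At 24 h, FGFRi and DMSO libraries came from different sets, so inhibitor and set cannot be told apart and no test was made. The FGFRi 24 h libraries had 609, 381, 396 and 437 CPM of *Sox9* and 26.8, 16.1, 14.6 and 19.7 CPM of *Dmrt1*. *Nr0b1* was 21.2, 18.5, 13.7 and 15.3 CPM there, where the DMSO 24 h libraries had 9.27, 6.71, 9.39 and 4.67 CPM.

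Because Sertoli products moved as well, each gene was set beside the 20 Sertoli products of the same library, as its log2 CPM minus their mean log2 CPM. The products include *Amh*, *Ptgds*, *Cyp26b1*, *Col9a3* and *Vnn1*, which are also in the list of genes that SOX9 regulates. Where *Sox9* and such genes fall together the relative level stays flat, so it does not measure *Sox9* per Sertoli cell. The mean of the products was 4.82 ± 0.205 with MEKi at 72 h and 5.54 ± 0.34 with DMSO (log2 CPM, SD, n = 4), a difference of −0.715 (exact permutation p = 0.0571, two-sided). On this relative scale *Sox9* was 2.88 ± 0.13 with MEKi and 2.76 ± 0.26 with DMSO (SD, n = 4), a difference of 0.12 that was smaller than the spread (exact permutation p = 0.571). *Nr0b1* was higher by 1.58 (exact permutation p = 0.0286, 4 of 4 libraries above the DMSO mean) and *Dmrt1* differed by −0.52 (exact permutation p = 0.0286, 0 of 4 above it). The relative difference of *Nr0b1* includes the −0.715 of the products, and *Nr0b1* itself rose by 0.92 by edgeR, with overlapping groups. The value 0.0286 is the smallest p that 4 against 4 libraries can give, and over the 15 tests of this family the adjusted p was 0.214, which did not pass. *Sox8* differed by −0.265 (exact permutation p = 0.2) and *Sox10* by −0.37 (exact permutation p = 0.257).

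At 24 h, *Dmrt1* stood higher relative to the Sertoli products with MEKi by 0.57 (exact permutation p = 0.0571, adjusted 0.286, 4 of 4 libraries above the DMSO mean). *Sox9* differed by 0.09 (exact permutation p = 0.457). With FGFRi at 72 h, differences ran from −0.17 for *Nr0b1* to 0.20 for *Sox10*, with exact permutation p-values of 0.257 to 0.914.

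**Figure D4:**
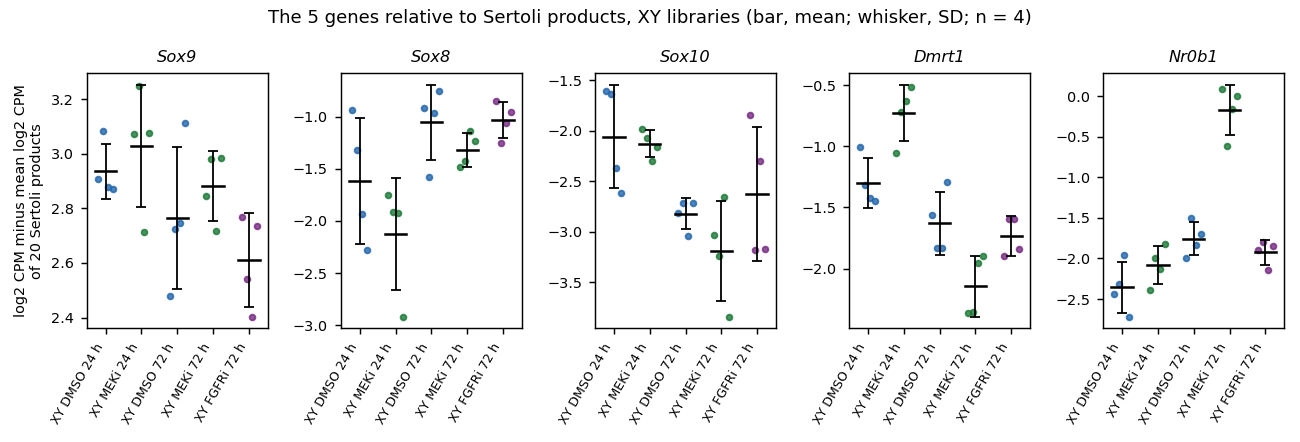
Log2 CPM of each gene minus the mean log2 CPM of 20 Sertoli products in the same XY library; points are libraries, bars means and whiskers SD (n = 4), with blue DMSO, green MEKi and purple FGFRi. *Nr0b1* was at −0.17 on average with MEKi at 72 h and at −1.75 with DMSO, whereas the *Sox9* groups overlapped.

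Other cell types changed beside these genes. Endothelial markers fell in 8 of 8 with MEKi at 24 h, to a summed 57.0 to 81.0 CPM from 212 to 314, and in 6 of 8 at 72 h, to 45.8 to 65.4 from 80.4 to 151 CPM. Macrophage markers fell in 6 of 8 with MEKi and in 7 of 8 with FGFRi at 72 h. Of all genes tested, 3.27% were DEGs with MEKi at 24 h, 6.47% with MEKi at 72 h and 1.80% with FGFRi at 72 h. The 10 pre-granulosa markers had 0 higher and 2 lower DEGs with MEKi at 72 h, with a summed 363 to 399 CPM against 378 to 441 with DMSO and 1766 to 2031 in XX cells. Of 5 tested mesonephros and duct markers, 1 rose with MEKi at 24 h, against 3.27% of the genes tested. The list then summed to 57.9 to 104.8 CPM with MEKi and to 47.4 to 56.1 CPM with DMSO, without overlap. At 72 h, 0 of the 5 were DEGs by edgeR with MEKi, and the list summed to 48.1 to 59.7 CPM against 32.8 to 58.2 with DMSO. Its marker *Pax8* was 16.7 ± 3.87 CPM with MEKi and 9.80 ± 1.51 with DMSO (SD, n = 4; FDR 0.0835, edgeR), and *Pax2* was at 0 in 3 of 4 MEKi and 2 of 4 DMSO libraries. The part of these cells in the results for the 5 genes was not tested.

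**Figure D5:**
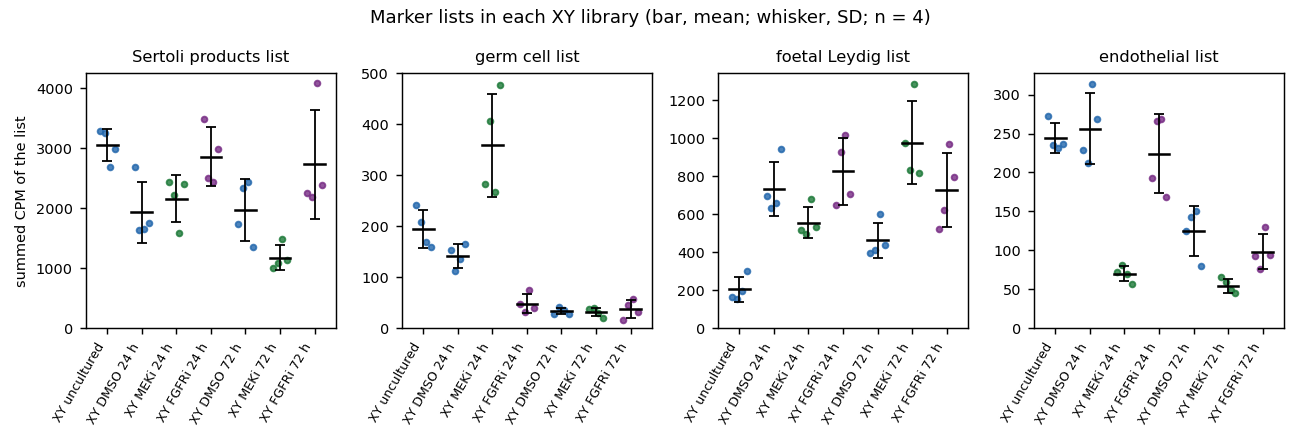
Summed CPM of 4 marker lists in each XY library (linear axes from 0; points are libraries, bars means, whiskers SD, n = 4; blue uncultured or DMSO, green MEKi, purple FGFRi). Germ cell markers reached 267 to 477 CPM with MEKi at 24 h and were 16.7 to 57.3 CPM in the 72 h groups, and foetal Leydig markers were 816 to 1284 CPM with MEKi at 72 h.

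The genes around the 5 in the pathway were described from lists by role. Of 14 tested genes that act before *Sox9* in testis determination, 1 rose and 0 fell with MEKi at 72 h, where 6.47% of all genes tested were DEGs (median −0.11 against 0.00 over all genes), so the count was near the background. It was *Gadd45g*, an activator of the MAP kinase route to *Sry*, with a log2 fold change of 0.69 (SE 0.150, FDR 0.00156, edgeR). None of the 14 was a DEG by edgeR with MEKi at 24 h or with FGFRi at 72 h. In XX against XY cells at 72 h, where 20.3% of all genes were DEGs, 5 of these were higher and 2 lower, led by the prostaglandin synthase gene *Ptgds* at −2.69 and *Gadd45g* at 1.70. *Ptgds* is also in the list of genes that SOX9 regulates and among the 20 Sertoli products, so its level does not describe a step before *Sox9* alone.

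Of 12 tested genes that SOX9 regulates in Sertoli cells or cartilage, 1 rose and 3 fell with MEKi at 72 h, against 6.47% of all genes tested, with a median of −0.37 against 0.00 over all genes. The collagen gene *Col9a3* fell by 2.02 (SE 0.236, FDR 1.11e-08), *Amh*, which encodes the hormone that regresses the Müllerian duct, fell by 1.90 (SE 0.648, FDR 0.0462), and *Cyp26b1*, which degrades retinoic acid, fell by 1.498 (SE 0.212, FDR 1.09e-06), by edgeR. The cartilage proteoglycan gene *Acan* rose by 1.86 (SE 0.424, FDR 0.00238, edgeR). *Amh* was low here, with 0 to 4 counts in the MEKi 72 h libraries and 1 to 13 with DMSO. At 24 h with MEKi, *Col11a2* rose by 1.65 and *Cyp26b1* fell by 0.65, and with FGFRi at 72 h *Vnn1* rose by 0.92. Against FGFRi, MEKi gave 1 higher and 5 lower in this list, against 6.43% of all genes, and XX against XY at 72 h gave 0 higher and 6 lower, against 20.3%.

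Of 11 ovarian regulators opposed to *Sox9*, 0 rose and 1 fell with MEKi at 72 h, near the background of 6.47% (median 0.22 against 0.00 over all genes), the Wnt effector gene *Lef1* at −0.86 (SE 0.251, FDR 0.0185, edgeR). With FGFRi at 72 h, *Wnt4* fell by 0.95 and *Rspo1* rose by 0.66, and with MEKi at 24 h *Runx1* rose by 1.12 and *Lef1* fell by 0.63. Against FGFRi at 72 h, MEKi gave 2 higher and 1 lower in this list, against 6.43% of all genes. These were *Foxl2* at 0.77 (FDR 0.0334), *Wnt4* at 0.68 (FDR 0.000138) and *Lef1* at −0.77 (FDR 0.0402), by edgeR. In XX against XY cells at 72 h, 7 were higher and 1 lower, against 20.3% of all genes, led by *Foxl2* at 3.68 and *Runx1* at 3.67. *Foxl2*, the ovarian factor opposed to *Sox9*, was 27.2 ± 4.65 CPM with MEKi, 17.8 ± 3.43 with DMSO and 232 ± 36.5 in XX cells at 72 h (SD, n = 4 each).

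Of 10 other *Sox* genes that passed the filter, 0 rose and 2 fell with MEKi at each time, against 3.27% of all genes at 24 h and 6.47% at 72 h, and none was a DEG by edgeR with FGFRi at 72 h, against 1.80%. The endothelial factor gene *Sox7* fell by 5.82 at 24 h and fell by 4.60 at 72 h, *Sox17* fell by 2.61 at 24 h, and *Sox13* fell by 0.88 at 72 h (edgeR). Between the sexes at 72 h, *Sox6* was lower in XX cells by a log2 fold change of −1.19, *Sox11* lower by −0.72 and *Sox5* higher by 0.97. The 1 other *Dmrt* gene that passed, *Dmrta1*, was higher in XX cells at 72 h by 2.02 and was not a DEG with MEKi (−0.32) or FGFRi (0.94) against DMSO.

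Likeness of pattern was described by Pearson's r of group mean log2 CPM over the 10 groups, among 12981 genes. The groups differ strongly by sex, which these correlations share. For *Sox9* the closest were *Dhh* (0.994), *Spp1* (0.991), *Sox10* (0.983), *Col9a3* (0.978) and *Agpat4* (0.976). For *Sox8* they were *Map3k21* (0.983), *Padi2* (0.973), *Cst9* (0.973), *Rab20* (0.972) and *Trim47* (0.970), and for *Sox10* they were *Col9a3* (0.985), *Sox9* (0.983), *Dhh* (0.980), *Ptk2b* (0.973) and *Myo18a* (0.972). *Dmrt1* came closest to *Sox6* (0.945), *Casp2* (0.945), *Pgm3* (0.938), *Nfatc2* (0.936) and *Sel1l3* (0.933). The order depended on the measure. By Spearman's rho, a correlation of ranks, *Sox6* and *Pgm3* ranked 4 and *Nfatc2* 11 for *Dmrt1*, but *Sel1l3* ranked 171 and *Casp2* 271. *Nr0b1* came closest to *Arl8b* (0.95), *Lrrc3b* (0.945), *Rnf135* (0.942), *Slc7a6os* (0.942) and *Angptl4* (0.940). Among the 5 genes themselves, r was 0.733 to 0.983 between the Sertoli factors, and −0.795 to −0.687 between each of them and *Nr0b1*.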

How the data were processed

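Somatic cell RNA was measured in 40 libraries. The deposited values are raw UMI counts per gene, which the authors made with scPipe and Rsubread on GRCm39, without normalisation. Library construction is described for germ cells and is taken to apply here. The members and gene lists were chosen with earlier results of these data known. Names and positions came from GENCODE M39 (40391 of 42422 identifiers). Groups came from the submitters' descriptions, which name 39 of 40 libraries. The MEKi 24 h library M2 was placed by its column name and the deposited library list. Genes were kept with filterByExpr (15125), scaled by TMM, and fitted as 10 group means with edgeR 4.0.16 (quasi-likelihood test, R 4.3.3). DEGs had FDR below 0.05 and at least 1.5-fold change. CPM used TMM-scaled library sizes, with a prior count of 2 on the log2 scale. Relative levels used two-sided exact permutation tests. Standard errors came from the estimate and its F statistic. The script was tested on simulated data. Alternatives used limma 3.58.1 and DESeq2 1.42.0. Genes named are the 5 members, up to 4 called genes of largest change per role list, the 5 genes of most similar pattern (mean CPM of 5 or more), and markers listed first in their lists. Libraries of a group were not copies of each other (chi-square per degree of freedom 1.92 to 7.69 over 60 pairs). One of these markers is not reported here.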

Additional observations from a re-analysis of the deposited data

Results flagged for a closer look

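In 4 of the 50 sets of 4 libraries (5 genes in 10 groups), 1 library stood far from the other libraries of its group, and chance gives about 1 in 20. *Sox9* was 258 CPM in the MEKi 24 h library M4, below the rest of its group. *Dmrt1* was 26.4 CPM in the XY DMSO 24 h library M2, above the rest. The summed Sertoli products stood apart in the same direction in both libraries, at 1587 CPM in MEKi M4 against 2220 to 2435 in its group and at 2694 CPM in DMSO M2 against 1642 to 1754; their part in these values was not tested. *Nr0b1* was 8.26 CPM in the uncultured XY library M6, below the rest, and 38.8 CPM in the XX DMSO 72 h library F7, above the rest, where the other 3 lay between 36.0 and 36.2 CPM.

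The effect of MEKi differed between 24 h and 72 h for *Dmrt1* (−2.08 on the log2 scale) and for *Sox9* (−0.96), by edgeR's test of the difference itself.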

How the results depend on the processing

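All 5 genes were DEGs between the sexes in each fit that left out 1 library, at each time. Counts of the 5 genes called moved elsewhere. With MEKi at 24 h, 0 were called under glmTreat, total counts, a 1 CPM filter, the replicate block and voom, and 0 to 1 without 1 library. With MEKi at 72 h, 0 were called under glmTreat and voom, 3 under DESeq2 and the replicate block (each without *Sox9*, −0.583 in the block), and 2 to 4 without 1 library. MEKi against FGFRi gave 0 under voom and 4 to 5 without 1 library. The change of the MEKi effect with time gave 0 under glmTreat and voom, 1 under the replicate block and DESeq2, and 1 to 2 without 1 library. XY at 24 h against uncultured gave 2 under glmTreat, 1 under voom, 3 (without *Sox8*) under total counts, the 1 CPM filter, the replicate block, the fit of only these groups and DESeq2, and 3 to 4 without 1 library. XX at 24 h gave 0 under glmTreat, voom and the replicate block, 1 under total counts, the 1 CPM filter and the fit of only these groups, and 1 to 3 without 1 library. For the change of the sex difference, the replicate block gave 1 at 24 h (*Sox9*, 1.08), and leaving out 1 library gave 0 to 1 at 72 h. The cause was not tested.

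Some estimates that did not pass the test changed sign. Under the replicate block they were −0.046 for *Sox10* with MEKi at 24 h, 0.079 for *Sox9* (−0.55 without the block) and −0.617 for *Sox8* in XX at 24 h, and −1.757 (*Sox10*, 24 h; 0.513 without it) and −0.317 (*Nr0b1*, 72 h) for the change of the sex difference. Total counts gave −0.023 for *Dmrt1* in the last at 24 h, DESeq2 gave −0.002 for *Nr0b1* at 72 h, and summed Sertoli CPM gave −0.009 for relative *Sox8* with FGFRi. Leaving out 1 library in turn gave −0.646 to 0.057 for *Sox8* and −0.12 to 0.414 for *Sox10* with MEKi at 24 h, and −0.323 to 0.36 for *Sox8* in XX at 24 h. For the change of the sex difference it gave −0.487 to 1.281 for *Sox10* and −0.103 to 0.317 for *Dmrt1* at 24 h, and −0.128 to 0.205 for *Nr0b1* at 72 h. Relative to Sertoli products it gave −0.257 to 0.08 for *Sox10* with MEKi at 24 h, and with FGFRi −0.151 to 0.122 for *Sox8*, −0.059 to 0.385 for *Sox10* and −0.171 to 0.008 for *Dmrt1*. Replicate numbers did not pair the samples (correlations −0.205 to 0.132). Low counts of *Sox10* in XX cells limit precision, and the fit of only the groups compared gave no value for *Sox10* between the sexes at 72 h or in XX at 24 h, nor for *Sox8* in the latter.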
